A study of Homo sapiens with 8 samples.

Results

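The genes described are TP63, TP73, MDM2, PPP1R13L, CDKN1A, SFN and GADD45A: 7 genes out of 20219 distinct gene symbols, chosen by name as members and partners of the p53 family. Each of the 7 had 1 feature in the table of expression values, and none of these features carried the file's mark for cross-hybridization. The profiled cells are MIV-Luc, which are MCF10CA1a cells, a metastatic carcinoma line derived from the immortalized breast epithelial line MCF10A, carrying luciferase. All groups share the luciferase gene and a stably integrated lentiviral pLKO vector, and the transduced cells were selected with puromycin and pooled. MIV-Luc-shSCR (− IL-13) cells express a scrambled hairpin and were mock-treated, and MIV-Luc-shSCR (+ IL-13) cells received 20 ng/ml interleukin-13 (IL-13) for 16 h. MIV-Luc-shIL13Rα2#2 cells express 1 hairpin against IL13Rα2, a receptor chain that binds IL-13 and limits its signalling, and were likewise mock-treated or given IL-13. Each of the 4 groups had 2 Affymetrix GeneChip arrays, 8 arrays in all, described as biological replicates; within a group they are called A and B after column order, without any link between groups. With 1 hairpin per target, effects of losing the receptor and effects of that hairpin or pool of cells cannot be told apart.

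p63, encoded by TP63, and p73, encoded by TP73, are transcription factors related to p53 that bind the same kind of DNA site. Each gene has alternative start sites, which give proteins with or without an activating domain, and p63 is a hallmark of the basal layer of the breast and other stratified or glandular epithelia. MDM2 encodes a ubiquitin ligase that restrains p53 and is itself a target of it, and PPP1R13L encodes iASPP, an inhibitory member of the ASPP family of p53-binding proteins. CDKN1A (the cyclin-dependent kinase inhibitor p21), SFN (14-3-3σ, which holds cells before mitosis) and GADD45A (a stress-induced growth arrest protein) are targets that family members activate or repress. The arrays report 1 value per gene, so transcripts with and without the activating domain were not separated.

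All values are log2 expression, on which a difference of 1 is a doubling. Probes differ in brightness, so differences were taken between arrays for 1 gene, the level of 1 gene was not set against that of another, and a sum over marker genes is weighted toward its brighter probes. In RNA from whole cultures, fewer cells of a type and less RNA per cell cannot be told apart. IL13RA2, the gene targeted by the hairpin, read 8.07 and 8.09 in MIV-Luc-shSCR (− IL-13), 9.36 and 9.33 in MIV-Luc-shSCR (+ IL-13), 6.52 and 6.34 in MIV-Luc-shIL13Rα2#2 (− IL-13), and 8.23 and 8.15 in MIV-Luc-shIL13Rα2#2 (+ IL-13). Knockdown cells differed from shSCR cells by -1.65 without and -1.16 with IL-13 (limma adjusted p = 0.0105 and 0.0241), as the labels say, and kept the adjusted p in 4 and 0 of 8 fits with 1 array left out. Knockdown cells given IL-13 read above mock-treated shSCR cells. Over the 8 arrays the epithelial marker EPCAM read 11.78 to 12.12 and the basal keratin KRT5 9.46 to 9.98. The 3 leukocyte markers PTPRC, CD3E and CD68 read 2.27 to 2.71, 3.77 to 4.39 and 6.52 to 7.39. The 4 fibroblast markers DCN, PDGFRB, COL1A2 and COL1A1 read 2.41 to 3.13, 4.40 to 4.78, 4.98 to 5.24 and 6.0 to 6.29. Without a detection limit for each probe, these values do not settle which of these genes were expressed. Of the 2 endothelial markers CDH5 read 4.40 to 4.83 and PECAM1 7.71 to 8.82. The summed endothelial level, weighted toward PECAM1, was highest in MIV-Luc-shIL13Rα2#2 (− IL-13), at 8.89 and 8.91. TP63 was highest in MIV-Luc-shIL13Rα2#2 (+ IL-13), and the part of these markers in the TP63 result was not tested.

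The starts of these genes are shown first, because p53 family proteins act through a DNA site of 2 adjoining half-sites and IL-13 acts through STAT6, which binds a spaced palindrome. RefSeq windows of the GRCh38.p14 build, 250 bases before to 50 bases after a start, were given for 6 of the 7 genes, GADD45A not being among them. The window of TP63, on the plus strand at chr3:189631139-189631438, covers 1 of its start sites. The window of MDM2 at chr12:68808767-68809066 and that of TP73 at chr1:3690422-3690721, both on the plus strand, are the ones in which a p53 family site was found, and its letters are in capitals.

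TP63: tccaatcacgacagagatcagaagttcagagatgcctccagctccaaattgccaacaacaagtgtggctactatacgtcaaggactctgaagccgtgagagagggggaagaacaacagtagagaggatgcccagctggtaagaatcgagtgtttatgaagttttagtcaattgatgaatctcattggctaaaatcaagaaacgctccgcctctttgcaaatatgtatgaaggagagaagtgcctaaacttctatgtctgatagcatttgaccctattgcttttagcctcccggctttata
MDM2: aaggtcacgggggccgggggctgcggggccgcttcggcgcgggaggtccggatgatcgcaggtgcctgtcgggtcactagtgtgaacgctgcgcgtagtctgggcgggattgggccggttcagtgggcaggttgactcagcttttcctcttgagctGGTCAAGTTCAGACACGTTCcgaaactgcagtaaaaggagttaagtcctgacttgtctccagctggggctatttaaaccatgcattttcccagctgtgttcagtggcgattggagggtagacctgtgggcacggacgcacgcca
TP73: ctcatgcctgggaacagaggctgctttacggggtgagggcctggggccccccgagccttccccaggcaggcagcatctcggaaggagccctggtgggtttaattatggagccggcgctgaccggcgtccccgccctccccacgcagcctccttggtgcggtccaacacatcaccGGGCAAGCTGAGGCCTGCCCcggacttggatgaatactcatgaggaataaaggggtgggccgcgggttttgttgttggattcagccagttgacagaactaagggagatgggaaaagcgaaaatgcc

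The p53 family site was searched on both strands as 2 half-sites of 10 bases without a spacer, with the central C and G of each half-site intact and at most 2 mismatches in all. In MDM2 the site starts 94 bases before the start site, and the same letters lie in a second, overlapping MDM2 window. In TP73 it starts 76 bases before the start site. A site of this kind was in 0.285% of all 35116 windows. No window of TP63, PPP1R13L, CDKN1A or SFN held it, and none of the windows of the 6 genes held the STAT6 palindrome TTCNNNNGAA (6.44% of all windows) or the tighter TTCNNNGAA (7.66%), which read alike on both strands. A match is a description of letters, and sites outside these windows were not searched.

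TP63 was the one gene of the 7 that passed both the adjusted p of 0.05 and the fold change of 2, and it did so where the knockdown and IL-13 came together. It read 5.06 and 4.87 in MIV-Luc-shSCR (− IL-13), 6.11 and 6.0 in MIV-Luc-shSCR (+ IL-13), 6.11 and 6.20 in MIV-Luc-shIL13Rα2#2 (− IL-13), and 6.98 and 6.50 in MIV-Luc-shIL13Rα2#2 (+ IL-13). The mock-treated shSCR arrays lay below all others and the knockdown arrays with IL-13 above all others, whereas the 2 middle groups lay next to each other, the lower knockdown array being level with the higher shSCR array at 6.11. TP63 was upregulated by 1.78 in MIV-Luc-shIL13Rα2#2 (+ IL-13) over MIV-Luc-shSCR (− IL-13) cells (SE 0.17, 95% confidence interval 1.39 to 2.16, limma adjusted p = 0.00969), a 3.43-fold difference. In that comparison 0.154% of the 29141 tested features passed both criteria, and TP63 had rank 5 by the size of its rise.

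Each treatment alone gave a TP63 difference of more than 1 on the log2 scale without passing the adjusted p. IL-13 in shSCR cells gave 1.09 (95% confidence interval 0.71 to 1.47, limma adjusted p = 0.138), in a comparison in which 0 of the 7 genes and 0.0583% of features passed. The knockdown without IL-13 gave 1.19 (0.81 to 1.57, adjusted p = 0.0996), with 0 of 7 genes and 0.0652% of features. Within knockdown cells IL-13 gave 0.59 (0.20 to 0.97, adjusted p = 0.522; 0 of 7 genes, 0.0618% of features), and among IL-13-treated cells the knockdown gave 0.69 (0.30 to 1.07, adjusted p = 0.377; 0 of 7 genes, 0.0515% of features). With 1 array left out these last 2 values ran from 0.35 to 0.83 and from 0.45 to 0.93, each lowest without array A and highest without array B of MIV-Luc-shIL13Rα2#2 (+ IL-13). These comparisons share groups of arrays, so they are not independent of each other. In absolute size the TP63 difference was still larger than that of 99.8%, 99.9%, 98.4% and 99% of features in these 4 comparisons.

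The interaction, which asks whether IL-13 moved TP63 by a different amount in the 2 cell pools, was -0.50 (95% confidence interval -1.05 to 0.04, limma adjusted p = 0.989). It ran from -0.74 to -0.26 with 1 array left out, the ends again set by arrays A and B of MIV-Luc-shIL13Rα2#2 (+ IL-13). None of the 7 genes and none of the features (0%) passed an adjusted p for the interaction in limma, and 4.47% of features, TP63 not among them, had an unadjusted p under the same threshold. Averaged over both cell pools, TP63 rose with IL-13 by 0.84 (0.57 to 1.11, adjusted p = 0.0463). Averaged over both treatments it rose with the knockdown by 0.94 (0.67 to 1.21, adjusted p = 0.0225). Both means passed the adjusted p and stayed under a fold change of 2. By the adjusted p alone, 1 of the 7 genes passed in each of these, against 0.233% of features for IL-13 and 0.446% for the knockdown; by both criteria 0 of the 7 did, against 0.0927% and 0.0755%. The spread between arrays of a group was wider for TP63 (pooled SD 0.189) than for the median feature (0.143), and widest in MIV-Luc-shIL13Rα2#2 (+ IL-13), where the arrays differed most. The TP63 rise in the combined comparison ran from 1.54 to 2.02 when each array was left out. It lost the adjusted p without either mock-treated shSCR array (0.0947 and 0.0847) and without the brighter knockdown array with IL-13 (0.0514), and each of the averaged effects kept it in 1 of 8 such fits.

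**Figure D1:**
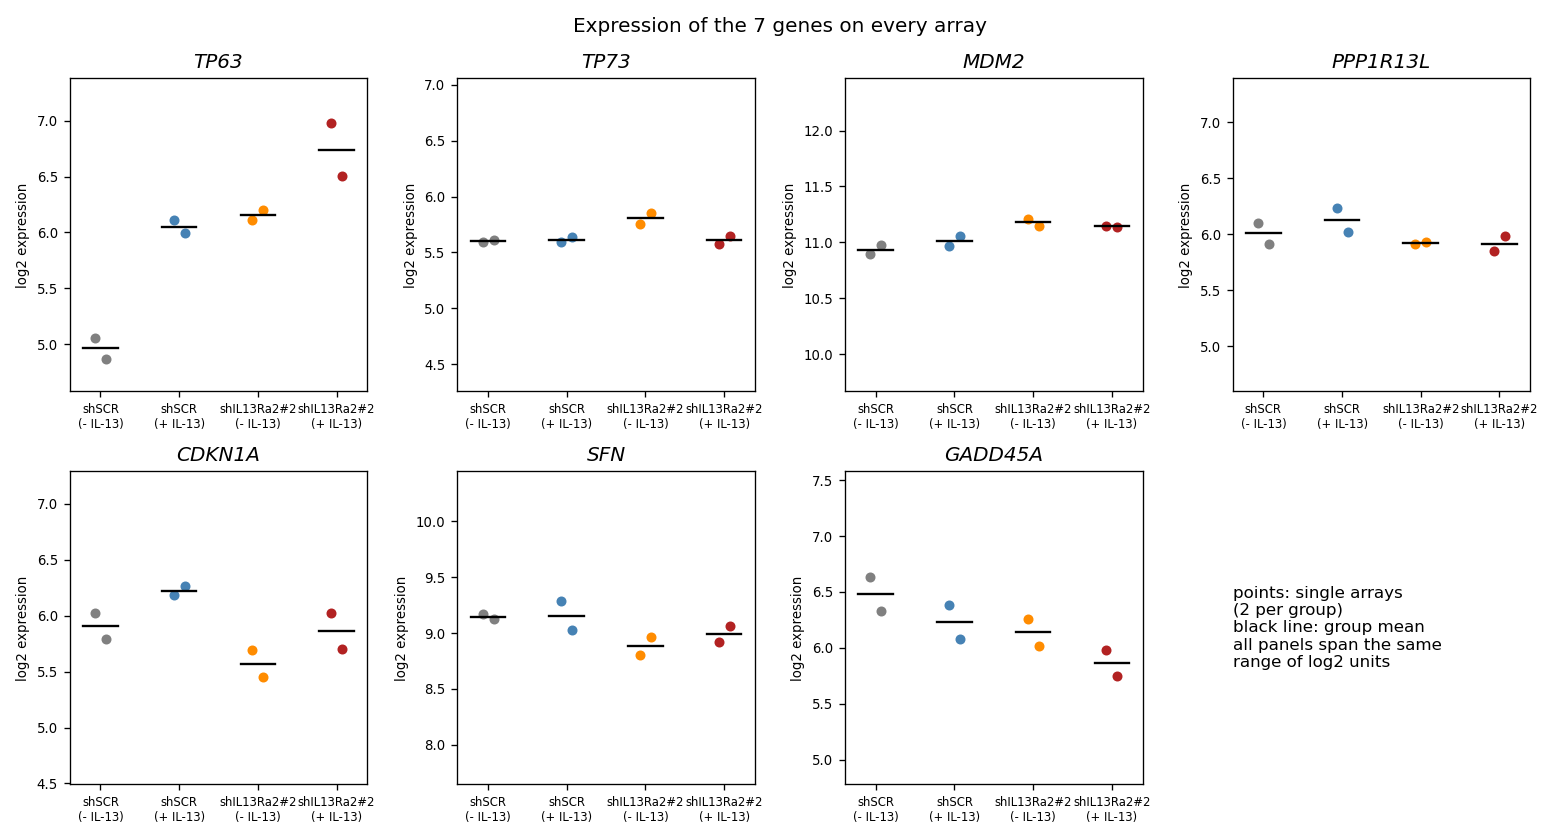
Log2 expression of the 7 genes (vertical axis, the same span of log2 units in each panel) in the 4 groups (horizontal axis); points are single arrays and black lines are group means. TP63 climbs from 5.06 and 4.87 in mock-treated shSCR cells to 6.98 and 6.50 in knockdown cells with IL-13, while the other 6 genes stay within about 1 log2 unit.

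Basal and general epithelial markers were not highest where TP63 was highest. The summed log2 level of 6 basal markers (KRT5, KRT14, KRT17, KRT6A, ITGB4 and CDH3) was 10.90 to 11.04 in MIV-Luc-shSCR (− IL-13), 10.67 to 10.81 in MIV-Luc-shSCR (+ IL-13), 10.88 to 10.93 in MIV-Luc-shIL13Rα2#2 (− IL-13) and 10.65 to 10.84 in MIV-Luc-shIL13Rα2#2 (+ IL-13). The sum of 4 epithelial markers (CDH1, EPCAM, KRT8 and KRT18) was 12.72 to 12.76, 12.68 to 12.79, 12.62 to 12.68 and 12.42 to 12.61 in the same order. Both sums were thus lower in the group with the most TP63 than in the group with the least, without overlap of their arrays. Between these groups ITGB4 differed by 0.16, opposite in sign to the other markers, and the arrays of ITGB4, CDH3 and EPCAM overlapped. KRT5, KRT14, ITGB4 and CDH3 are also among the epithelial p63 targets listed below. The basal sum is therefore not separate from that list. The part of both sums in the TP63 result was not tested.

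TP73, the other family member, read 5.59 and 5.61 in MIV-Luc-shSCR (− IL-13), 5.59 and 5.64 in MIV-Luc-shSCR (+ IL-13), 5.76 and 5.85 in MIV-Luc-shIL13Rα2#2 (− IL-13), and 5.57 and 5.64 in MIV-Luc-shIL13Rα2#2 (+ IL-13). The 2 mock-treated knockdown arrays lay above the other 6, which ran from 5.57 to 5.64. The knockdown difference without IL-13 was 0.21 (95% confidence interval -0.03 to 0.44, limma adjusted p = 0.572), and IL-13 within knockdown cells gave -0.20 (-0.43 to 0.04, adjusted p = 0.762). Neither passed the test. In the combined comparison, where TP63 rose, TP73 differed by 0.01 (-0.23 to 0.24). This interval leaves out a difference in the TP73 reading as large as that of TP63. Without a detection limit for its probes, the values do not settle whether TP73 was expressed. Its spread between arrays was among the narrowest on the array (pooled SD 0.0455, with 3.3% of features narrower).

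The genes of the inhibitors differed little between groups. MDM2 read 10.89 and 10.97 in MIV-Luc-shSCR (− IL-13), 10.97 and 11.06 in MIV-Luc-shSCR (+ IL-13), 11.21 and 11.15 in MIV-Luc-shIL13Rα2#2 (− IL-13), and 11.15 and 11.13 in MIV-Luc-shIL13Rα2#2 (+ IL-13). All 4 knockdown arrays lay above all 4 shSCR arrays, as they did for TP63. These were 2 of the 7 genes, and the 4 arrays of each cell pool did not overlap for 7.13% of features. The averaged knockdown difference of MDM2 was 0.19 (95% confidence interval 0.02 to 0.35), which did not pass the test (limma adjusted p = 0.392). For MDM2, IL-13 averaged over both cell pools gave 0.02 (-0.14 to 0.19). PPP1R13L read 6.10 and 5.91 in MIV-Luc-shSCR (− IL-13), 6.23 and 6.02 in MIV-Luc-shSCR (+ IL-13), 5.92 and 5.93 in MIV-Luc-shIL13Rα2#2 (− IL-13), and 5.85 and 5.98 in MIV-Luc-shIL13Rα2#2 (+ IL-13). Its largest difference was between the knockdown and shSCR cells with IL-13, at -0.21 (-0.50 to 0.08, adjusted p = 0.807), and the mock-treated groups overlapped.

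None of the 3 growth arrest targets had a higher mean in knockdown than in shSCR cells, as TP63 did. CDKN1A read 6.02 and 5.79 in MIV-Luc-shSCR (− IL-13), 6.18 and 6.26 in MIV-Luc-shSCR (+ IL-13), 5.69 and 5.45 in MIV-Luc-shIL13Rα2#2 (− IL-13), and 6.03 and 5.70 in MIV-Luc-shIL13Rα2#2 (+ IL-13). Arrays with IL-13 lay above those without it in both cell pools, and knockdown arrays below shSCR arrays at either treatment. In knockdown cells the arrays with and without IL-13 nearly met, at 5.70 and 5.69, beside a pooled SD of 0.168. The averaged IL-13 difference was 0.30 (95% confidence interval 0.05 to 0.56, limma adjusted p = 0.484) and the averaged knockdown difference -0.35 (-0.60 to -0.09, adjusted p = 0.314), and neither passed the adjusted p. Between knockdown cells with IL-13 and mock-treated shSCR cells, CDKN1A differed by -0.04 (-0.40 to 0.31), and the arrays of these groups overlapped. TP63 in contrast was higher with IL-13 and with the knockdown.

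GADD45A read 6.64 and 6.33 in MIV-Luc-shSCR (− IL-13), 6.38 and 6.08 in MIV-Luc-shSCR (+ IL-13), 6.26 and 6.01 in MIV-Luc-shIL13Rα2#2 (− IL-13), and 5.98 and 5.75 in MIV-Luc-shIL13Rα2#2 (+ IL-13). The order of its group means was that of TP63 turned around, although neighbouring groups overlapped except the knockdown cells with and without IL-13. Knockdown cells with IL-13 stood -0.62 from mock-treated shSCR cells (95% confidence interval -1.01 to -0.23), a difference larger in size than that of 98.2% of features, with a limma p of 0.00658 that did not hold after adjustment (0.302). The averaged differences were -0.35 for the knockdown (-0.63 to -0.08, adjusted p = 0.346) and -0.26 for IL-13 (-0.54 to 0.01, adjusted p = 0.591). Its spread between arrays was wide (pooled SD 0.194).

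SFN read 9.17 and 9.13 in MIV-Luc-shSCR (− IL-13), 9.29 and 9.02 in MIV-Luc-shSCR (+ IL-13), 8.80 and 8.97 in MIV-Luc-shIL13Rα2#2 (− IL-13), and 8.92 and 9.07 in MIV-Luc-shIL13Rα2#2 (+ IL-13). Knockdown arrays lay below shSCR arrays without IL-13 and overlapped with them in its presence. The averaged knockdown difference was -0.21 (95% confidence interval -0.43 to 0.0003, limma adjusted p = 0.442), and IL-13 gave 0.06 (-0.15 to 0.27).

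**Figure D2:**
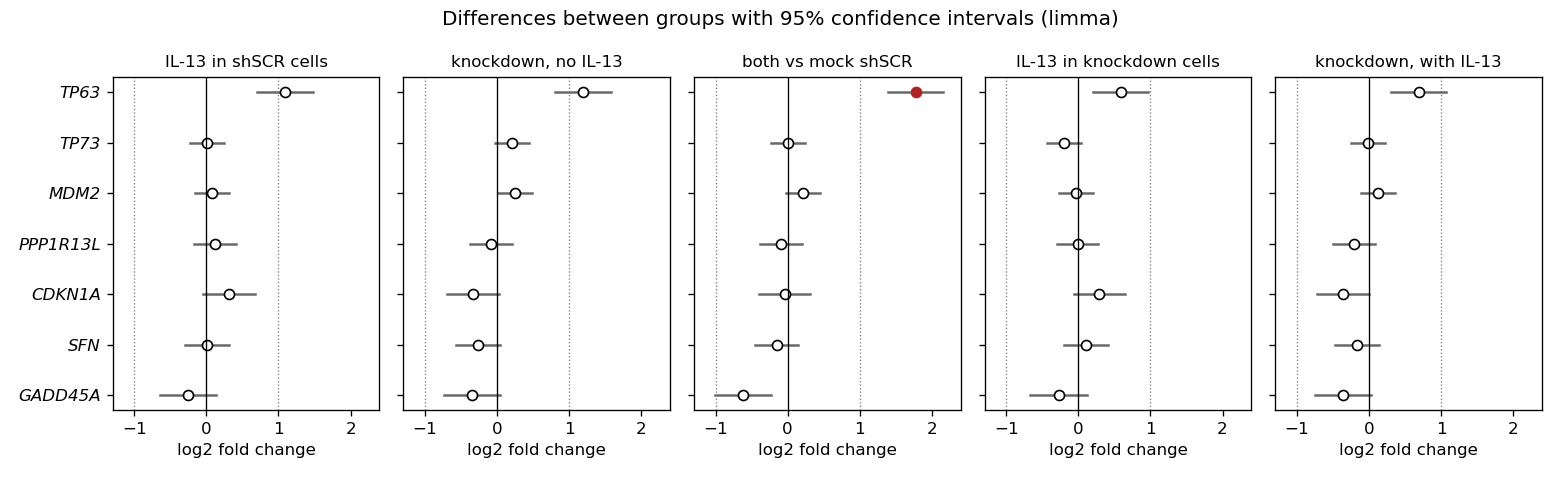
Log2 fold change (horizontal axis) of each gene (vertical axis) in 5 comparisons, with 95% confidence intervals from limma; filled red marks an adjusted p under 0.05, dotted lines a fold change of 2, and "both" is the knockdown with IL-13. TP63 in the combined comparison, at 1.78, is the one filled point, and the intervals of TP63 lie above 0 in all 5 panels.

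Counted together, the 7 genes showed more small differences by the knockdown than by IL-13, with few of them past a test. For the averaged knockdown effect 4 of the 7 had an unadjusted limma p under 0.05 (TP63 and MDM2 higher, CDKN1A and GADD45A lower), where 11.3% of all features did. For the averaged IL-13 effect 2 of 7 did (TP63 and CDKN1A, both higher), against 8.73% of features. With 1 array left out, MDM2 (0.17 to 0.21) and GADD45A (-0.43 to -0.28) did not keep that p in every fit for the knockdown. Nor did CDKN1A (0.22 to 0.39) for IL-13. Arrays of the compared groups did not overlap for 6 of 7 genes in the knockdown without IL-13 (41.2% of features). For IL-13 in shSCR cells they did not overlap for 2 of 7 (36.7% of features). Non-overlap of 2 against 2 arrays was thus common on these arrays. The counts lay closer together in the other pair, at 5 of 7 for the knockdown with IL-13 and 4 of 7 for IL-13 in knockdown cells. The shares over all features for that pair are not given here. The median difference over the 7 genes was -0.15 for the averaged knockdown and 0.05 for IL-13, and over all features -0.0060 and 0.0084. Whether the knockdown and IL-13 counts differ was not tested.

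The rest of the pathway was followed in 4 lists, of 13 relatives (paralogs) of these genes, 20 regulators of p53 family proteins, 27 targets of the family in growth arrest, DNA repair and apoptosis, and 29 epithelial targets of p63. All of their genes were on the array and none passed both criteria in any comparison. Among the 27 arrest, repair and apoptosis targets 22 were lower and 5 higher by the averaged knockdown effect, with 51.8% of all features lower. The median was -0.13, against -0.0060 over all features, and 8 of the 27 had an unadjusted limma p under 0.05, all of them lower (TP53I3, DDB2, RRM2B, ZMAT3, TIGAR, GDF15, CD82 and PMAIP1), where 6.03% of features were lower at that p. None of the 27 passed the adjusted p for this effect. With each array left out, 21 to 23 genes were lower and 3 to 8 of them had an unadjusted p under 0.05. For IL-13 averaged over both cell pools the same list was balanced, with 13 genes higher and 14 lower and a median of -0.02. PMAIP1 differed by -0.41 with the knockdown without IL-13, but its mean with IL-13 was 6.98 in knockdown and 6.99 in shSCR cells. Within knockdown cells IL-13 moved PMAIP1 by 0.68 (limma adjusted p = 0.252).

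TP53I3, which encodes a quinone reductase-like protein induced by p53, was the target of this list that passed an adjusted p. It read 6.68 and 6.70 in MIV-Luc-shSCR (− IL-13), 6.27 and 6.23 in MIV-Luc-shSCR (+ IL-13), 6.33 and 6.28 in MIV-Luc-shIL13Rα2#2 (− IL-13), and 5.89 and 5.97 in MIV-Luc-shIL13Rα2#2 (+ IL-13). The untreated control was highest and the combination lowest, the reverse of TP63, and the 2 middle groups lay close together. The combined difference was -0.75 (95% confidence interval -0.98 to -0.52, limma adjusted p = 0.0349). DDB2, a DNA damage recognition protein, went the same way by -0.72 in this comparison and did not pass (adjusted p = 0.194).

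The 29 epithelial p63 targets lay on both sides of 0. In the combined comparison 12 were higher and 17 lower, with a median of -0.05 against 0.0062 over all features. With 1 array left out 15 to 19 were lower and the median ran from -0.09 (without array B of MIV-Luc-shSCR (− IL-13)) to -0.00033 (without array A of that group), so the size of this median rests on single arrays. There 2 passed the adjusted p alone, as 0.285% of features did, HBEGF and DST, both higher. HBEGF, an EGF receptor ligand, read 7.14 and 7.09, then 7.78 and 7.86 with IL-13, 7.39 and 7.28 in knockdown cells, and 7.85 and 7.96 with both. It thus stood high wherever IL-13 was given, with an averaged IL-13 rise of 0.64 (95% confidence interval 0.46 to 0.81, limma adjusted p = 0.0242) and a combined rise of 0.79 (adjusted p = 0.0357). DST, which encodes the hemidesmosomal plakin BPAG1 among other forms, read 9.23 and 9.15, then 9.53 and 9.53 with IL-13, 9.78 and 9.73 in knockdown cells, and 9.89 and 9.88 with both. It rose by 0.70 in the combined comparison (0.47 to 0.93, adjusted p = 0.0455) and by 0.46 with the knockdown on average (adjusted p = 0.0459). At an unadjusted limma p under 0.05, DST and IGFBP3 were higher by the averaged knockdown effect. ITGA3, LAMA3, LAMB3 and S100A2 were lower by it, so that 20.7% of the list had such a p, against 11.3% of features. None of these 4 passed an adjusted p, ITGA3 coming closest (limma adjusted p = 0.0532).

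IGFBP3, an IGF-binding protein, rose by 0.57 with the knockdown on average (95% confidence interval 0.40 to 0.74, limma adjusted p = 0.0229), its arrays in knockdown cells reading 6.67 and 6.73 without and 6.28 and 6.26 with IL-13, and 5.76 to 6.08 in shSCR cells. For IL-13 its averaged difference was -0.33 and did not pass (adjusted p = 0.211). The adjusted p of TP53I3, HBEGF, DST and IGFBP3 each rose above 0.05 whichever of the 8 arrays was left out.

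**Figure D3:**
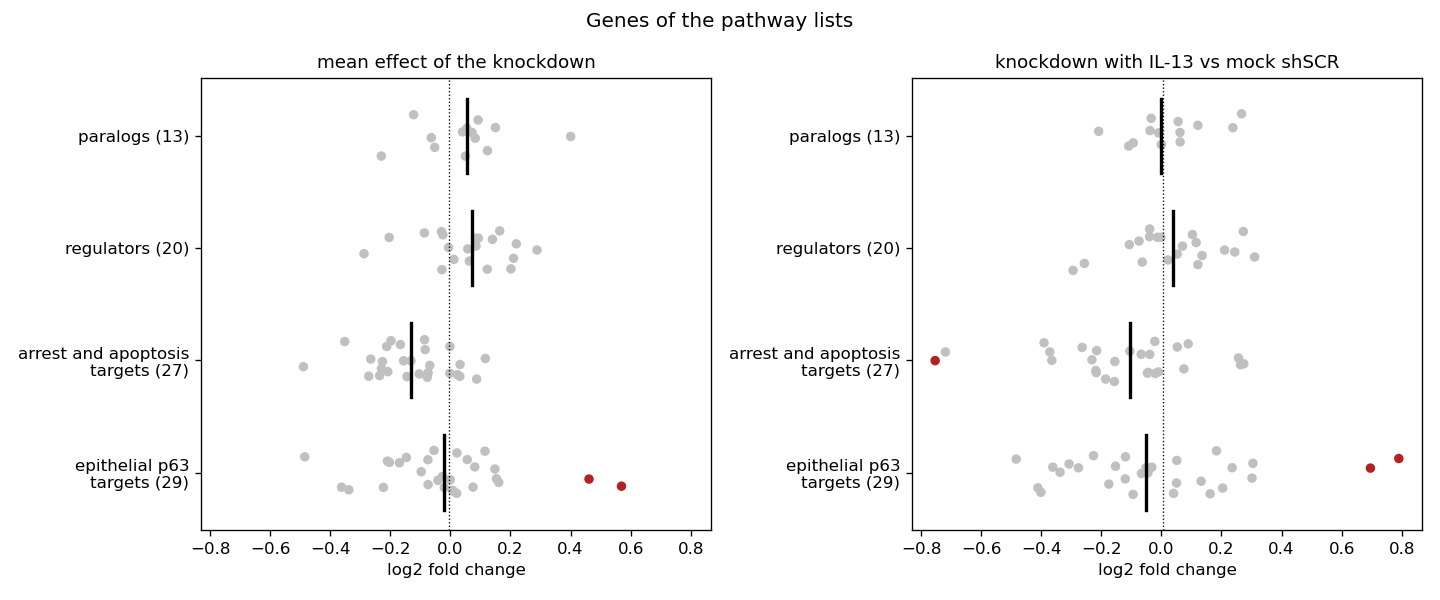
Log2 fold change (horizontal axis) of every gene in the 4 lists (rows, with the number of genes) for the averaged knockdown effect (left) and for the combined comparison (right); black bars are list medians, the dotted line is the median of all features, vertical scatter carries no value, and red marks an adjusted p under 0.05. The medians of the arrest, repair and apoptosis targets lie left of the dotted line, at -0.13 and -0.10, and the red points are DST and IGFBP3 on the left and TP53I3, DST and HBEGF on the right.

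No gene among the relatives or the regulators passed an adjusted p. For the averaged knockdown effect, 2 of the 13 relatives (CDKN1B higher and GADD45G lower) and 5 of the 20 regulators (STXBP4, EP300 and SIRT1 higher, YAP1 and HIPK2 lower) had an unadjusted limma p under 0.05, or 15.4% and 25% against 11.3% of features. The median difference was 0.05 over the relatives, and 0.02 to 0.08 with 1 array left out, the ends set by arrays A and B of MIV-Luc-shIL13Rα2#2 (+ IL-13). Over the regulators it was 0.07, and ran from 0.0021 to 0.12 when array B or array A of the mock-treated knockdown cells was left out. CDKN1B, the cyclin-dependent kinase inhibitor p27 and a relative of CDKN1A, read 6.96 and 7.25 in MIV-Luc-shSCR (− IL-13), 6.91 and 7.06 in MIV-Luc-shSCR (+ IL-13), 7.45 and 7.65 in MIV-Luc-shIL13Rα2#2 (− IL-13), and 7.33 and 7.35 in MIV-Luc-shIL13Rα2#2 (+ IL-13). Its averaged knockdown difference of 0.40 (limma adjusted p = 0.176) had the opposite sign to the -0.35 of CDKN1A. MDM4, the close relative of MDM2, differed by 0.27 in the combined comparison (adjusted p = 0.518), beside 0.21 for MDM2. Of the regulators, the coactivator YAP1 differed by -0.29 with the knockdown on average (adjusted p = 0.196) and the deacetylase SIRT1 by 0.31 in the combined comparison (adjusted p = 0.407).

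Across the 8 arrays the pattern of TP63 was most like that of PLCE1 (phospholipase C epsilon, Pearson's r = 0.984), THBS1 (thrombospondin 1, 0.980), ITPR1 (an inositol trisphosphate receptor, 0.977) and CNOT2 (a CCR4-NOT subunit, 0.971). This is a ranking of 20218 other genes over 8 arrays that fall into 4 groups, and 77 of them had r above 0.9. It describes likeness and carries no test. The 4 genes were picked for this pattern, so their differences in the combined comparison are not separate results. The order depended on the measure, since by Spearman's rho these 4 genes ranked between 14 and 470 and none was among the leading 5. With 1 array left out, PLCE1 and ITPR1 stayed among the leading 5 by Pearson's r in 7 of 8 cases each, THBS1 in 5 and CNOT2 in 2. THBS1 passed both criteria in the combined comparison, upregulated by 1.26 (95% confidence interval 0.95 to 1.56, limma adjusted p = 0.0152), and kept the adjusted p in 4 of 8 fits with an array left out. Its arrays read 8.61 and 8.32 in MIV-Luc-shSCR (− IL-13), 9.24 and 9.24 in MIV-Luc-shSCR (+ IL-13), 9.12 and 9.18 in MIV-Luc-shIL13Rα2#2 (− IL-13), and 9.82 and 9.63 in MIV-Luc-shIL13Rα2#2 (+ IL-13). ITPR1 rose by 0.90 there (adjusted p = 0.0313, above 0.05 whichever array was left out), and PLCE1 and CNOT2 differed by 0.55 and 0.25 without passing (adjusted p = 0.0958 and 0.467). Among the other 6 genes of the p53 family and partners, Pearson's r with TP63 was 0.75 for MDM2, 0.15 for TP73, -0.04 for CDKN1A, -0.26 for PPP1R13L, -0.45 for SFN and -0.74 for GADD45A.

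**Figure D4:**
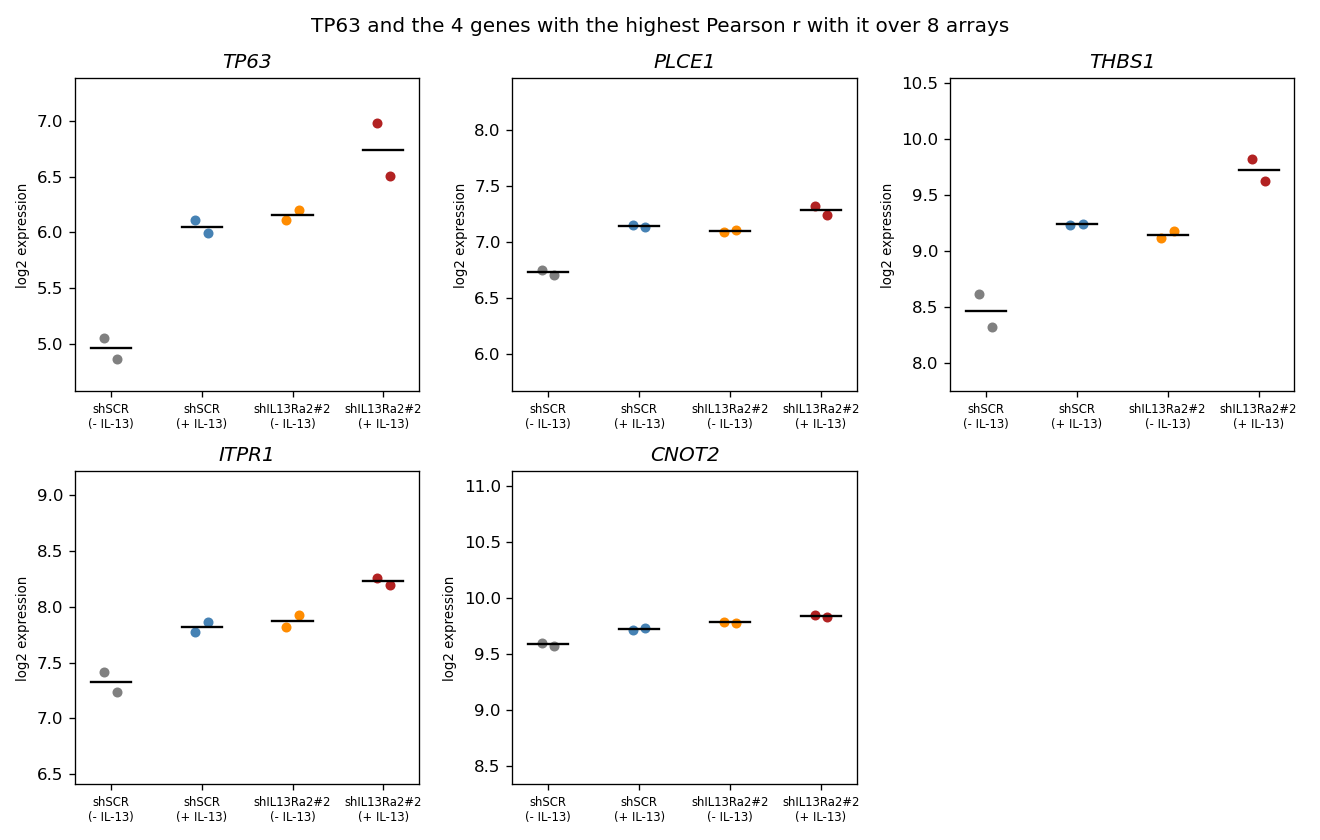
Log2 expression (vertical axis, the same span in each panel) of TP63 and the 4 genes with the highest Pearson's r with it over the 8 arrays, by group (horizontal axis); points are single arrays and black lines group means. In every panel the mock-treated shSCR arrays are lowest and the knockdown arrays with IL-13 highest, as the choice by likeness to TP63 favours. The steps of CNOT2 (0.25 in all) are far smaller than those of TP63 (1.78).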

How the data were processed

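Gene expression was measured in 4 groups of 2 arrays. The authors deposited log2 values, 1 per feature and array, made with RMA in Affymetrix Expression Console version 1, per the labels, a method that subtracts background, puts all arrays on one distribution by quantiles and combines the probes of a feature. The genome build is not given in the sources used here. The heading of each column names its construct and treatment, which set its group, and no column was left out. Of 33297 features 29141 were tested, without further normalization or a filter, after removal of 4156 controls and spike-ins. The median array value was 5.02 to 5.06, and Pearson's r between arrays was 0.992 to 0.993 within and 0.988 to 0.993 between groups. No 2 arrays were identical. The number of arrays limits the precision.

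Groups were compared with limma (version 3.58.1, R 4.3.3) using all 8 arrays (4 residual and 3.86 prior degrees of freedom), with Benjamini-Hochberg adjustment over all features. Passing both criteria means an adjusted p under 0.05 and a fold change above 2; the interaction used the adjusted p alone. The members and lists were chosen with earlier results of these data known. Every member is named, as are list genes with an adjusted p under 0.05 in any comparison (in a list without one, the 2 with the smallest unadjusted p) and the 4 genes most like TP63; 2 genes that the rule would name are not reported here, and the p63 list is counted without them. DDB2, RRM2B, ZMAT3, TIGAR, GDF15, CD82, PMAIP1, GADD45G, STXBP4, EP300, HIPK2, ITGA3, LAMA3, LAMB3 and S100A2 were named after their values were seen. TIGAR, COP1 and NECTIN1 were found under older symbols, and a list gene with several features was taken at its brightest. The fit was checked on simulated data. As alternatives, results were recomputed with a one-way analysis of variance on the 4 arrays compared, called the methods' test here. The methods name such a test without saying which arrays entered it, so the use of 4 arrays was a choice made here. Other alternatives were limma on those arrays, no adjustment, other fold change thresholds, a trended robust prior and a filter on dim features. So were 2 other normalizations, 1 feature per symbol and leaving out each array.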

Additional observations from a re-analysis of the deposited data

How the results depend on the processing

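TP63 kept its direction in every comparison under every alternative run, and its call did not. In the combined comparison its difference of 1.78 lost the adjusted p with limma on the 4 arrays compared (1.78, adjusted p = 0.127). It also lost it with the methods' test, run on those 4 arrays, after adjustment (1.78, adjusted p = 0.588). Which arrays entered the authors' own test is not stated, so this is not a rerun of it. Leaving out 1 array gave 1.54 to 2.02. The number of the 7 genes passing there was 1, and 0 with limma on 4 arrays and with the adjusted methods' test, with 0 to 1 when an array was left out. For IL-13 in shSCR cells the number went from 0 to 1 (TP63) without adjustment in limma, with the unadjusted methods' test and with a trended robust prior (adjusted p = 0.0125). For the knockdown without IL-13 it went from 0 to 1 under the same 3 settings (trended robust prior, adjusted p = 0.00622) and with 1 feature per gene symbol (adjusted p = 0.0392). For both averaged effects it went from 0 to 1 with no fold change threshold or with one of 1.5, and for the knockdown it was 0 to 1 with an array left out, being 1 without array B of MIV-Luc-shIL13Rα2#2 (+ IL-13).

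Signs turned only when an array was left out, and only in differences that had not passed a test. The ranges were, for TP73, -0.0068 to 0.037 (IL-13 in shSCR cells), -0.028 to 0.044 (combined) and -0.043 to 0.029 (knockdown with IL-13). They were, for SFN, -0.12 to 0.14 (IL-13 in shSCR cells), -0.032 to 0.23 (interaction) and -0.0069 to 0.13 (averaged IL-13). They were, for PPP1R13L, -0.18 to 0.011 (knockdown without IL-13), -0.19 to 0.00082 (combined) and -0.079 to 0.059 (IL-13 in knockdown cells). For CDKN1A they were -0.21 to 0.12 (combined) and -0.19 to 0.14 (interaction), and for GADD45A -0.17 to 0.13 (interaction). The cause was not tested, beyond the fewer arrays that such a fit holds; the lone array of a group is then assumed to vary like the others. No paired analysis was possible because the column headings carry running numbers in place of the replicate numbers of the labels. For this reason the replicate block was not run.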
